A study of Mus musculus with 12 samples.

Results

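A set of 33 established p53 target genes with roles in DNA repair, cell death, metabolism and growth control was followed in RNA from mouse colonic crypts. The members were found by gene symbol, and all 33 were present among the 55471 genes of the deposited table and among the 14610 genes that passed the filter on low counts. The rule uses gene names only and no measured value, but the members were chosen with earlier results of these data known. The share of members that respond to p53 deletion is therefore not that of p53 targets at large.

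The crypts came from female C57BL/6J mice aged 8 weeks, and each of 4 groups held 3 libraries from 3 mice. CBPAA mice carry a knock-in at exon 25 of Crebbp in every cell, which replaces a pair of serines of the coactivator CBP with alanine, and CBPWT mice are their littermates. All mice carried floxed p53 alleles. In the CBPWTp53-floxed and CBPAAp53-floxed groups p53 was left in place, and in the CBPWTp53ΔIEC and CBPAAp53ΔIEC groups Villin-Cre, a recombinase made in the epithelial cells of the gut, removed it. The Villin-Cre transgene and the loss of p53 cannot be told apart here, since the p53-floxed mice were bred without the transgene. Crypts were released with EDTA, so a library holds an enriched epithelial fraction and not a sorted cell type.

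The transcription factor p53 is stabilised after DNA damage, nutrient shortage and other stress, binds specific sites near its target genes and recruits coactivators such as CBP and p300 to switch them on. Its best studied targets halt the cell cycle or trigger apoptosis, and many others repair DNA, limit oxidative damage or restrain growth signals. Most are also under the control of other factors, so that a target can be expressed in unstressed tissue with or without p53. In the intestine p53 guards the stem and progenitor cells of the crypt base, which are among the first cells to die after irradiation.

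Libraries held 11177430 to 18029125 counted reads. Trp53 was between 23.3 and 33.5 TPM (a level corrected for gene length and library size) in the 6 p53-floxed libraries and between 3.26 and 6.13 TPM in the 6 p53ΔIEC libraries, which did not overlap. All 14 epithelial marker genes were detected and summed to between 27881 and 46166 TPM, while 12 stromal genes summed to between 4.96 and 9.05 TPM, 10 endothelial genes to between 3.46 and 6.23 TPM and 14 leukocyte genes to between 6.72 and 23.4 TPM. The fibroblast collagen Col1a1 stayed at or below 0.149 TPM in every library. A further check went against the colonic label for some libraries. Lyz1, a lysozyme of small-intestinal Paneth cells, reached 2281 TPM in CBPWTp53ΔIEC replicate 1, 789 TPM in CBPAAp53ΔIEC replicate 3, 410 TPM in CBPAAp53ΔIEC replicate 1 and 123 TPM in CBPAAp53-floxed replicate 2, against at most 13.7 TPM in the other 8 libraries. Fabp6, the bile acid binding protein of the ileum, was at 1629, 500, 453 and 217 TPM in the same libraries and at most 20.1 TPM in the other 8. The whole lists set fewer libraries apart. The sum of 12 small-intestinal genes was 4702 TPM in CBPWTp53ΔIEC replicate 1, 2742 TPM in CBPAAp53-floxed replicate 2, 2737 TPM in CBPAAp53ΔIEC replicate 3 and 1596 TPM in CBPAAp53ΔIEC replicate 1, against 790 to 1749 TPM in the other 8. The sum of 10 Paneth cell genes was 21261, 4593, 9881 and 4874 TPM in these libraries and 734 to 12489 TPM in the other 8, with the upper end in CBPAAp53-floxed replicate 3. Results that move with these libraries are given with and without them.

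The members spanned a wide range of basal levels. By the mean over the CBPWTp53-floxed mice, 5 members lay above 100 TPM, 13 between 10 and 100 TPM and 15 below 10 TPM. Perp, a desmosomal membrane protein linked to apoptosis, led at 430 ± 3.82 TPM (SD, n = 3), followed by Dcxr, a xylulose reductase, at 179 ± 15.1 TPM. Casp1, the inflammasome protease, was at 166 ± 7.74 TPM and the tetraspanin Cd82 at 157 ± 2.90 TPM. Their values lay between 155 and 173 TPM and overlapped, and Casp1 also overlapped with Dcxr. Btg2, an antiproliferative cofactor, closed the upper group at 132 ± 13.6 TPM. At the low end, Psrc1, a spindle protein, was at 2.07 ± 0.297 TPM and Ak1, an adenylate kinase, at 0.942 ± 0.337 TPM, the latter with as few as 6 reads in a library. The plot of levels in all groups shows the same members in the 4 genotypes.

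**Figure D1:**
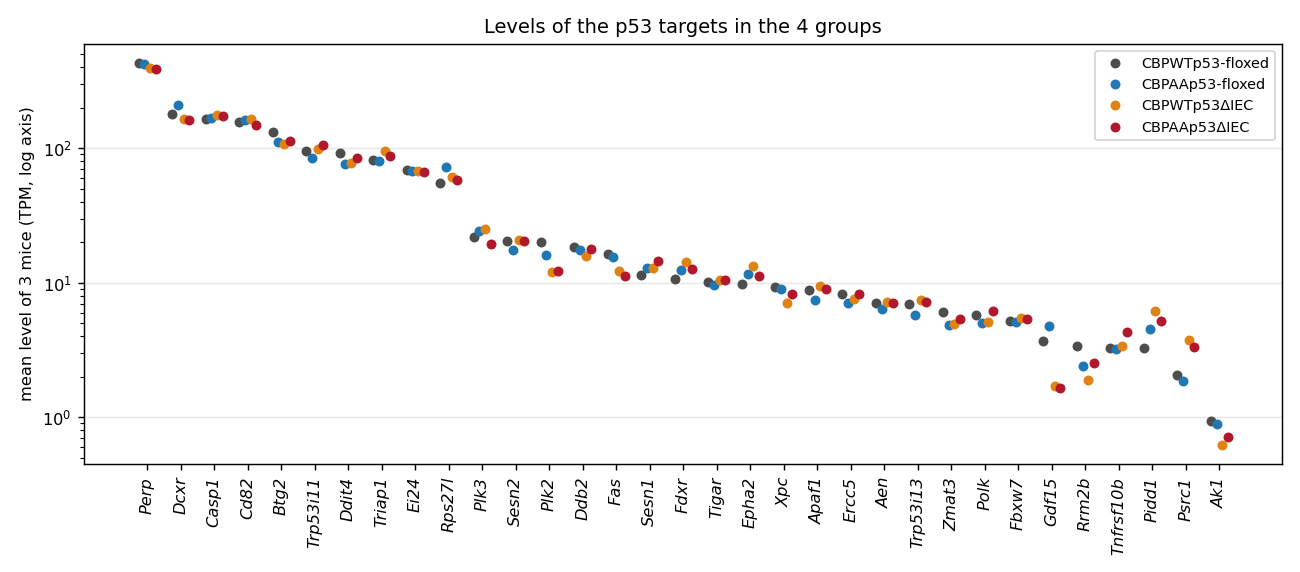
Mean level of each of the 33 p53 targets in the 4 groups (y axis, TPM, log axis; each point is the mean of 3 mice), ordered by the level in CBPWTp53-floxed mice. The 4 points of a gene lie close together next to the range from Perp at 430 TPM to Ak1 at 0.942 TPM, and Gdf15 and Plk2 are among the genes whose p53ΔIEC points lie lower in both CBP genotypes.

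Spread between mice differed by group as well as by gene. The median coefficient of variation over the members was 8.40% in CBPWTp53-floxed, 17.7% in CBPAAp53-floxed, 22.4% in CBPWTp53ΔIEC and 15.5% in CBPAAp53ΔIEC mice. Plk3, a stress-responsive Polo-like kinase, was the most variable member in CBPAAp53-floxed (56.0%) and in CBPWTp53ΔIEC mice (58.8%). Gdf15 was the most variable in CBPWTp53-floxed mice (39.0%) and Psrc1 in CBPAAp53ΔIEC mice (41.6%).

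The first question was which of these targets differed with p53 deletion in these crypts. When p53 deletion was averaged over both CBP genotypes, 2 of 33 members, Gdf15 and Plk2, passed the cutoff, both lower in p53ΔIEC mice. A gene passed when its Benjamini-Hochberg adjusted p from edgeR's quasi-likelihood test over all 14610 genes was below 0.05 and its log2 fold change exceeded 0.5 in size. The 2 members are 6.06% of the list, against 3.5% of all genes that passed in either direction and 0.732% that passed as lower. Counted at an unadjusted p under 0.05, 7 members were lower and 2 were higher, against 8.73% and 13.2% of all genes. The median log2 fold change of the members was -0.03, against 0.01 for all genes, and for 30 of 33 members the 95% interval of the log2 fold change lay within 1 unit on either side of 0. As these are bulk libraries, fewer cells that express a gene and less of its RNA per cell cannot be told apart.

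Gdf15 encodes a secreted stress cytokine of the TGF-β superfamily (GRCm38 chr8:70629393-70632456, minus strand). Its level was 5.30, 3.13 and 2.59 TPM in CBPWTp53-floxed mice and 6.19, 4.82 and 3.34 TPM in CBPAAp53-floxed mice. After deletion it was 1.07, 1.89 and 2.11 TPM in CBPWTp53ΔIEC mice and 1.504, 1.77 and 1.71 TPM in CBPAAp53ΔIEC mice. All 6 p53ΔIEC libraries lay below all 6 p53-floxed libraries. Averaged over both CBP genotypes Gdf15 fell 2.56-fold, with a log2 fold change of -1.36 ± 0.22 (SE, adjusted p = 0.011). The log2 fold change was -1.08 ± 0.32 in CBPWT mice (adjusted p = 0.078) and -1.63 ± 0.31 in CBPAA mice (adjusted p = 0.233), and the difference between them was -0.55 ± 0.45 (adjusted p = 0.644). The gene was counted with 32 to 67 reads in a p53-floxed library and 10 to 21 in a p53ΔIEC library, so its counting error is large.

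Plk2 encodes a Polo-like kinase that acts at the centrosome and in the stress response (chr13:110395046-110400844, plus strand). Its level was 18.1, 21.3 and 20.6 TPM in CBPWTp53-floxed mice and 9.45, 14.9 and 11.5 TPM in CBPWTp53ΔIEC mice. In CBPAAp53-floxed mice it was 18.3, 13.6 and 15.97 TPM, and in CBPAAp53ΔIEC mice 11.9, 11.4 and 13.5 TPM. Within each CBP genotype the groups did not overlap, by a narrow margin in CBPAA mice. Plk2 fell 1.53-fold on average, with a log2 fold change of -0.61 ± 0.10 (SE, adjusted p = 0.012). The log2 fold change was -0.71 ± 0.15 in CBPWT mice (adjusted p = 0.032) and -0.51 ± 0.15 in CBPAA mice (adjusted p = 0.320), and the difference between them was 0.20 ± 0.21 (adjusted p = 0.716). In CPM (counts per library size) scaled by TMM, the normalization of the test, all 6 p53ΔIEC libraries (at most 25.3) lay below all 6 p53-floxed libraries (at least 25.9), whereas in TPM 1 CBPWTp53ΔIEC library at 14.9 exceeded 1 CBPAAp53-floxed library at 13.6.

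Gdf15 and Plk2 were the 2 members whose 6 p53ΔIEC libraries all lay below the 6 p53-floxed libraries in scaled CPM, an ordering shown by 0.726% of all genes. No member showed the reverse ordering, against 1.03% of all genes. In TPM 1 member, Gdf15, lay lower in this way and none higher, against 0.445% and 0.746% of all genes. Gdf15 and Plk2 kept their call without any 1 of the 12 libraries and under each of the other 7 settings tried. The adjusted p for Gdf15 reached at most 0.039 and for Plk2 at most 0.047 in those fits.

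**Figure D2:**
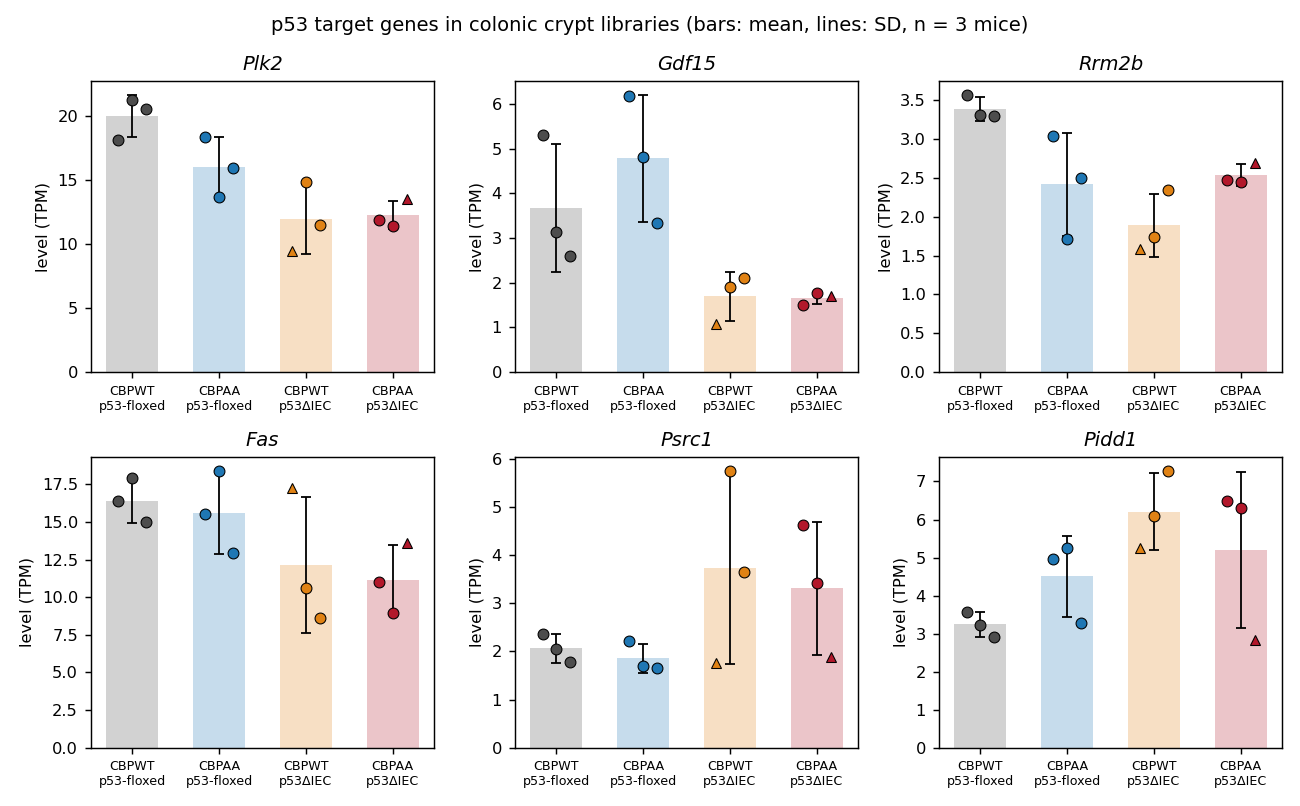
Level of 6 p53 targets in each library (y axis, TPM; points are mice, bars the mean and lines the SD of 3 mice). Triangles mark CBPWTp53ΔIEC replicate 1 and CBPAAp53ΔIEC replicate 3, the 2 libraries with the most Lyz1 RNA, which have more Fas and less Psrc1 than the other p53ΔIEC libraries, while Gdf15 is at most 2.11 TPM in every p53ΔIEC library.

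The promoters of the 2 members that passed the averaged test are shown with those of a pair of members that carry the letters of a p53 half-site, to let a reader compare them. The windows are from RefSeq (GRCm38.p6) and run from 250 bases before to 50 bases after a transcript start, in the direction of the gene. The Plk2 window is chr13:110394794-110395093 (plus strand) and that of Gdf15 is chr8:70632407-70632706 (minus strand). Those of Ei24, an autophagy protein of the endoplasmic reticulum, and of Rps27l, a ribosomal protein S27 paralog, are chr9:36797285-36797584 (minus strand) and chr9:66946163-66946462 (plus strand, a downstream start of the gene). Capitals mark each match to the p53 half-site consensus, which reads the same on both strands.
Plk2: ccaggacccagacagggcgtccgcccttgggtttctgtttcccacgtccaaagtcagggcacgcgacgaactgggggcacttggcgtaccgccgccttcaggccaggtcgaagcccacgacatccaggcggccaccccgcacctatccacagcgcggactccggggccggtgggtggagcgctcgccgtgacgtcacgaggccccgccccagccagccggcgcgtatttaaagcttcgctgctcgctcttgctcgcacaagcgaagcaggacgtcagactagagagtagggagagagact
Gdf15: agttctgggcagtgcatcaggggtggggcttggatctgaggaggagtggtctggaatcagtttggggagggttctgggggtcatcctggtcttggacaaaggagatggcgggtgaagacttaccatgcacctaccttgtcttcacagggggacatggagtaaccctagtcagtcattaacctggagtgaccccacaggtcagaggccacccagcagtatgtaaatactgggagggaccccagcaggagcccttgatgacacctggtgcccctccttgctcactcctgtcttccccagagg
Ei24: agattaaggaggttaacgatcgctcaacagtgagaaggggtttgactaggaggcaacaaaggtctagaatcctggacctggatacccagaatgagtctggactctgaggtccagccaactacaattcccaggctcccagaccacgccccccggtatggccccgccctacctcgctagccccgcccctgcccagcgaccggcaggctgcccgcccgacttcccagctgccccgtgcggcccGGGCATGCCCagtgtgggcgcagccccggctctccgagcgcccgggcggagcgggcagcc
Rps27l: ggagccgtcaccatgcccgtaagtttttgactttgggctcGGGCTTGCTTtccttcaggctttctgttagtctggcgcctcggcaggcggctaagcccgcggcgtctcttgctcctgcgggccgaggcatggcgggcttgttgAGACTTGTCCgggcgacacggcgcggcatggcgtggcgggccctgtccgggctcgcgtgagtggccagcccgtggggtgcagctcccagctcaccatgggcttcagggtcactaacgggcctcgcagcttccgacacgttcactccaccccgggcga

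Neither the Plk2 window nor either Gdf15 window held a match to the half-site consensus. The window at the upstream start of Rps27l (chr9:66945836-66946135, not printed) held none either, unlike the downstream window shown. The match in Ei24 (GGGCATGCCC) began 10 bases before the start, and those in Rps27l (GGGCTTGCTT and AGACTTGTCC) began 210 and 107 bases before it. Aen, a nuclease of apoptotic cells, held GGGCTTGTCC, the sestrin Sesn1 held AAGCTTGTTT in 1 of 2 windows, and the lesion bypass polymerase Polk held GAACTAGCCT in 1 of 2 windows. Windows were found for 27 of 33 members, and 5 of these (18.5%) held a match, against 9.55% of the 27025 genes with a window. A gene with more windows has more room for a match. Counted by window, 6 of 41 member windows (14.6%) held one, against 8.36% of all 32851 windows. A match is a description of letters and no evidence of binding. None of the 5 members with a match passed the cutoff in a comparison. The averaged log2 fold change was -0.07 for Ei24, -0.14 for Rps27l, 0.02 for Aen, 0.15 for Sesn1 and 0.01 for Polk.

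In CBPWT mice alone, 2 of 33 members (6.06%) passed the cutoff after p53 deletion, against 3.15% of all genes in either direction and 0.856% that were lower. These were Plk2, described above, and Rrm2b. In CBPAA mice alone no member passed, against 0.0274% of all genes, which is 4 genes. Fitted with DESeq2, Gdf15 passed in CBPAA mice (adjusted p = 0.015, between 0.010 and 0.777 over all settings), as 1 of 75 genes, while Rrm2b, Pidd1 and Plk2 passed in CBPWT mice, against 5.93% of all genes. At an unadjusted p under 0.05, 6 members were lower and 3 higher in CBPWT mice (8.28% and 12.6% of all genes), and 3 were lower and 0 higher in CBPAA mice (5.41% and 7.19% of all genes). The p53ΔIEC and p53-floxed groups did not overlap in scaled CPM for 7 lower and 3 higher members in CBPWT mice, against 14.7% and 16.1% of all genes, and for 5 lower and 0 higher members in CBPAA mice, against 7.18% and 7.86%. In TPM the counts were 5 lower and 1 higher in CBPWT mice, against 12.9% and 8.43% of all genes, and 2 lower and 1 higher in CBPAA mice, against 2.67% and 11.7%. The calls of Rrm2b and Plk2 in CBPWT mice were lost without any 1 of the CBPWTp53-floxed libraries, without CBPWTp53ΔIEC replicate 2 and without CBPWTp53ΔIEC replicate 3, with adjusted p of up to 0.154 over all settings.

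**Figure D3:**
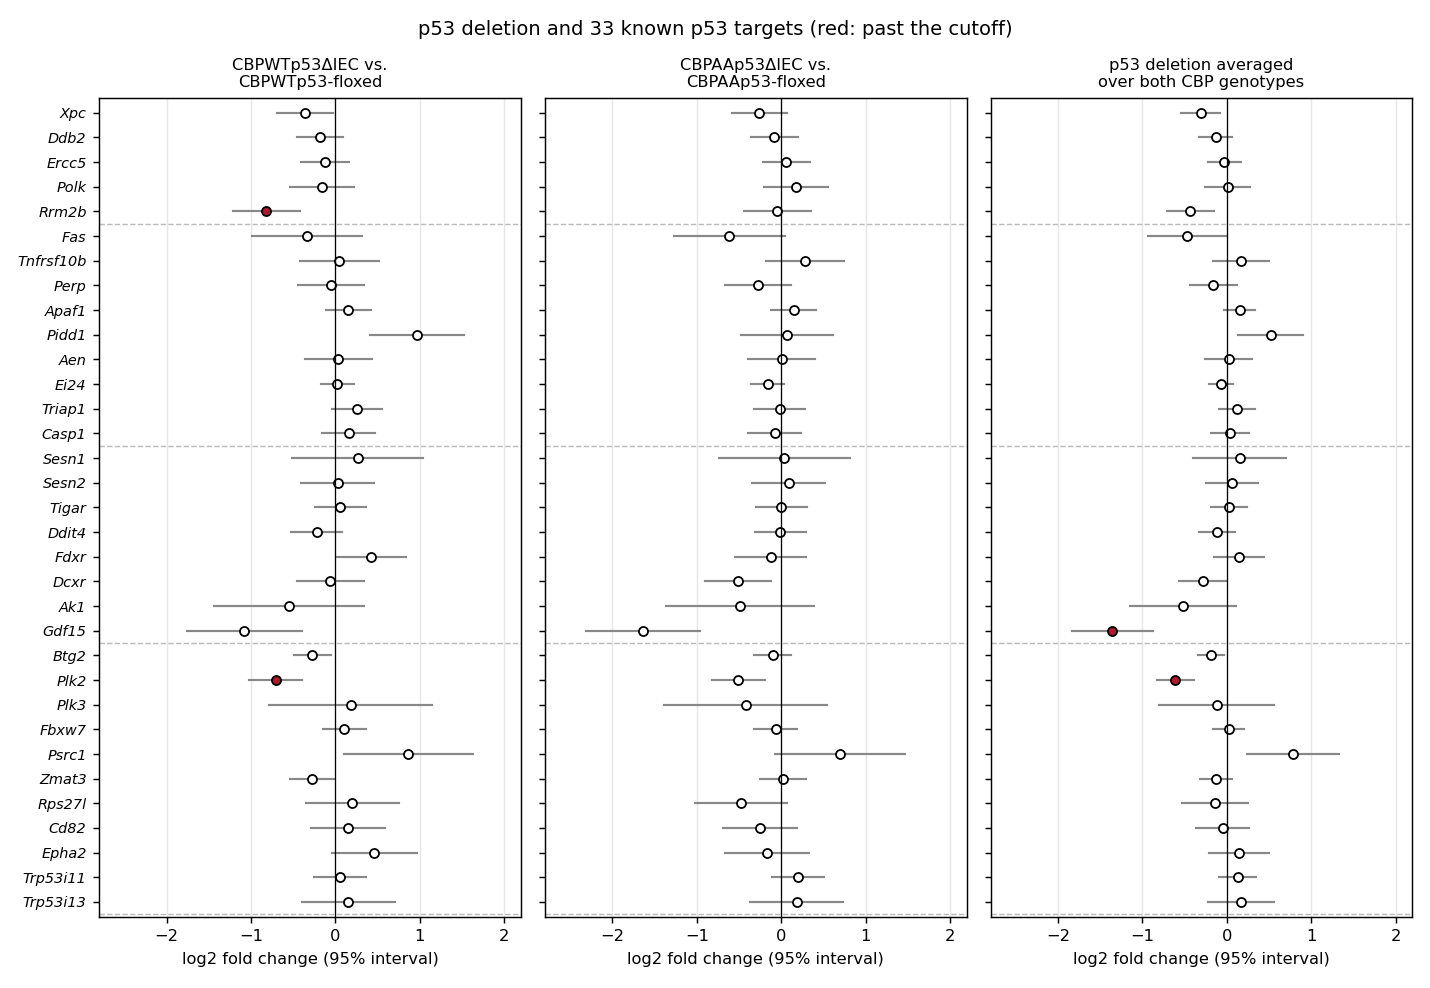
Log2 fold change after p53 deletion (x axis) of each of the 33 targets in CBPWT mice, in CBPAA mice and averaged over both. Lines are 95% intervals, filled points passed the cutoff, and dashed lines separate DNA repair, cell death, metabolism and growth genes from top to bottom. Rrm2b and Plk2 are filled in the left panel, no gene in the middle panel, and Gdf15 and Plk2 in the right panel.

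Among the 5 DNA repair and nucleotide supply genes, all 5 had a log2 fold change below 0 in CBPWT mice, with a median of -0.18, and 3 of 5 in CBPAA mice, with a median of -0.05, against 48.8% and 47.8% of all genes below 0. Rrm2b encodes the p53-inducible small subunit of ribonucleotide reductase, which supplies deoxynucleotides for repair (chr15:37923952-37961318, minus strand). Its level was 3.57, 3.31 and 3.30 TPM in CBPWTp53-floxed mice and 1.59, 1.74 and 2.35 TPM in CBPWTp53ΔIEC mice. It was 3.04, 1.72 and 2.50 TPM in CBPAAp53-floxed mice and 2.48, 2.44 and 2.70 TPM in CBPAAp53ΔIEC mice. The CBPWT groups did not overlap and the CBPAA groups did. Rrm2b fell 1.76-fold in CBPWT mice, with a log2 fold change of -0.82 ± 0.18 (SE, adjusted p = 0.035), while in CBPAA mice the log2 fold change was -0.05 ± 0.18 (adjusted p = 0.927). The difference between these effects was 0.77 ± 0.26 and did not pass after adjustment (unadjusted p = 0.011, adjusted p = 0.482). Averaged over both CBP genotypes the log2 fold change of Rrm2b was -0.43 ± 0.13 (adjusted p = 0.074). These values moved with CBPAAp53-floxed replicate 2, a library rich in Lyz1 RNA in which Rrm2b was at 1.72 TPM. Without it the log2 fold change of Rrm2b was -0.25 in CBPAA mice (adjusted p = 0.576, between 0.389 and 0.993 over all settings), and the difference between the effects was 0.59. The averaged value without it was -0.54 and passed the cutoff (adjusted p = 0.021, between 0.004 and 0.184 over all settings). Without the 4 libraries richest in Lyz1 the values were -0.32 in CBPAA mice, 0.51 for the difference and -0.57 averaged, the last of which passed. The gene is overlapped by Gm49085 on the opposite strand and by Gm3362 on its own strand, so its counts are less certain.

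Xpc, which recognises bulky DNA damage, was at 9.30, 9.62 and 9.16 TPM in CBPWTp53-floxed, 9.58, 8.61 and 8.76 TPM in CBPAAp53-floxed, 6.82, 6.54 and 7.92 TPM in CBPWTp53ΔIEC and 7.87, 6.83 and 9.90 TPM in CBPAAp53ΔIEC mice. The CBPWT groups did not overlap, and in CBPAA mice replicate 3 of the p53ΔIEC group, a library rich in Lyz1 RNA, was the highest of all. The averaged log2 fold change of Xpc was -0.31 ± 0.11 (adjusted p = 0.116). Without CBPWTp53ΔIEC replicate 1 and CBPAAp53ΔIEC replicate 3 it was -0.46 (adjusted p = 0.002), still below the fold cutoff, with adjusted p between 0.001 and 0.265 over all settings. Without the 4 libraries richest in Lyz1, Xpc passed as lower, with an averaged log2 fold change of -0.52 (adjusted p = 0.001) and one of -0.57 in CBPAA mice (adjusted p = 0.043, between 0.036 and 0.855 over all settings). Ddb2, its partner in finding ultraviolet damage, was at 19.0, 18.1 and 18.01 TPM in CBPWTp53-floxed, 21.4, 17.4 and 13.5 TPM in CBPAAp53-floxed, 14.3, 16.9 and 16.1 TPM in CBPWTp53ΔIEC and 19.8, 18.01 and 16.01 TPM in CBPAAp53ΔIEC mice. Every CBPWTp53ΔIEC value of Ddb2 lay below the CBPWTp53-floxed values in TPM, and the CBPAA groups overlapped. It had an averaged log2 fold change of -0.13 ± 0.09 (adjusted p = 0.422). The excision nuclease Ercc5 and Polk had averaged values of -0.03 and 0.01.

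None of the 9 cell death genes passed the cutoff in any p53 comparison, and their median log2 fold change was 0.05 in CBPWT and -0.02 in CBPAA mice. Fas, the death receptor, was at 16.4, 17.9 and 15.0 TPM in CBPWTp53-floxed and 15.5, 18.4 and 12.9 TPM in CBPAAp53-floxed mice. It was at 17.2, 10.6 and 8.62 TPM in CBPWTp53ΔIEC and 11.0, 8.96 and 13.6 TPM in CBPAAp53ΔIEC mice. The 4 p53ΔIEC libraries other than CBPWTp53ΔIEC replicate 1 and CBPAAp53ΔIEC replicate 3 were between 8.62 and 11.0 TPM, below every p53-floxed library, and those 2 libraries were not. The averaged log2 fold change of Fas was -0.48 ± 0.21 (adjusted p = 0.214). Without the 2 libraries it was -0.83 and passed the cutoff (adjusted p = 0.0008, at most 0.388 over all settings). Those libraries were picked after the values were seen and had the highest Fas of the p53ΔIEC mice. The pass therefore follows largely from that choice.

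Pidd1, a death-domain scaffold that activates caspase-2, had its higher values after deletion. Its level was 3.58, 3.24 and 2.91 TPM in CBPWTp53-floxed and 5.26, 6.09 and 7.29 TPM in CBPWTp53ΔIEC mice, which did not overlap. It was 4.97, 5.26 and 3.29 TPM in CBPAAp53-floxed and 6.48, 6.29 and 2.84 TPM in CBPAAp53ΔIEC mice, which did overlap. The log2 fold change of Pidd1 was 0.97 ± 0.26 in CBPWT mice (adjusted p = 0.056) and 0.07 ± 0.25 in CBPAA mice (adjusted p = 0.921), and the difference of -0.90 ± 0.36 did not pass after adjustment (unadjusted p = 0.027, adjusted p = 0.482). Without CBPWTp53ΔIEC replicate 1 and CBPAAp53ΔIEC replicate 3, the log2 fold change of Pidd1 was 0.95 in CBPWT mice and passed (adjusted p = 0.004, between 0.0007 and 0.221 over all settings), and it was 0.35 in CBPAA mice (adjusted p = 0.244). With all libraries Pidd1 also passed in CBPWT mice with DESeq2 (adjusted p = 0.009), with no filter on low counts (adjusted p = 0.027) and when fitted on the 2 groups alone (adjusted p = 0.016).

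The other 7 cell death genes had averaged log2 fold changes between -0.16 and 0.17. They were Perp, the TRAIL receptor Tnfrsf10b, the apoptosome scaffold Apaf1, Aen, Ei24, the apoptosis inhibitor Triap1 and Casp1. Perp, the most abundant of them, was between 373 and 471 TPM in the p53-floxed libraries and between 342 and 463 TPM in the p53ΔIEC libraries. CBPWTp53ΔIEC replicate 1 and CBPAAp53ΔIEC replicate 3 were at 449 and 463 TPM. The other p53ΔIEC libraries were between 342 and 374 TPM, so the ranges overlapped mainly through that pair of libraries. The averaged log2 fold change of Perp was the lowest of the 7 genes, at -0.16. Apaf1 was at 8.36, 9.28 and 8.64 TPM in CBPWTp53-floxed, 9.22, 5.97 and 7.17 TPM in CBPAAp53-floxed, 8.57, 9.88 and 10.0 TPM in CBPWTp53ΔIEC and 9.42, 9.06 and 8.54 TPM in CBPAAp53ΔIEC mice, and the groups overlapped. It had log2 fold changes of 0.15 ± 0.12 in both CBP genotypes (adjusted p = 0.504 in CBPWT and 0.608 in CBPAA mice).

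Of the 8 metabolism and stress genes, only Gdf15 passed the cutoff, in the averaged comparison. Sesn1 and Sesn2, sestrins that restrain mTORC1, had averaged log2 fold changes of 0.15 and 0.06. Tigar, which diverts sugar from glycolysis, and Ddit4, another inhibitor of mTORC1, had values of 0.03 and -0.12, and Fdxr, the ferredoxin reductase of mitochondria, of 0.15. The ranges of these 5 genes over all p53-floxed and all p53ΔIEC libraries overlapped. Within CBPWT mice, Ddit4 was lower and Fdxr higher after deletion without overlap in scaled CPM, while both overlapped in TPM. Dcxr was at 197, 170 and 172 TPM in CBPWTp53-floxed, 205, 250 and 175 TPM in CBPAAp53-floxed, 178, 148 and 171 TPM in CBPWTp53ΔIEC and 165, 132 and 187 TPM in CBPAAp53ΔIEC mice. The log2 fold change of Dcxr was -0.51 ± 0.18 in CBPAA mice (adjusted p = 0.334) and -0.06 ± 0.18 in CBPWT mice (adjusted p = 0.883). The CBPWT groups of Dcxr overlapped, and the CBPAA groups overlapped in TPM but not in scaled CPM. Ak1 was at 0.792, 0.707 and 1.33 TPM in CBPWTp53-floxed, 0.620, 1.08 and 0.969 TPM in CBPAAp53-floxed, 0.765, 0.644 and 0.452 TPM in CBPWTp53ΔIEC and 0.716, 0.594 and 0.814 TPM in CBPAAp53ΔIEC mice. Its groups overlapped in both CBP genotypes. Ak1 had an averaged log2 fold change of -0.52 ± 0.29 (adjusted p = 0.317), with an interval from -1.14 to 0.11 at this depth.

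Sesn1 stood out in a pair of libraries. It was 18.4 TPM in CBPWTp53ΔIEC replicate 1 and 20.3 TPM in CBPAAp53ΔIEC replicate 3, and between 9.28 and 14.8 TPM in the other 10 libraries. These 2 libraries were the highest of the 12 for Lyz1 and Fabp6 too, and Sis, the sucrase of small-intestinal enterocytes, was at 53.4 and 45.9 TPM in them and at most 15.0 TPM in the others. The part of small-intestinal RNA in the Sesn1 values was not tested.

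Of the 11 growth and signalling genes, Plk2 alone passed. Btg2 was at 125, 123 and 148 TPM in CBPWTp53-floxed, 128, 118 and 90.1 TPM in CBPAAp53-floxed, 85.1, 111 and 126 TPM in CBPWTp53ΔIEC and 113, 108 and 120 TPM in CBPAAp53ΔIEC mice. The CBPWT and CBPAA comparisons both overlapped in TPM, while in scaled CPM the CBPWT groups separated, at 130 or more with p53 and at most 119 without it. The averaged log2 fold change of Btg2 was -0.19 ± 0.07 (adjusted p = 0.154). Zmat3, an RNA-binding protein that p53 uses to alter splicing, was at 5.53, 6.09 and 6.44 TPM in CBPWTp53-floxed, 5.69, 4.17 and 4.75 TPM in CBPAAp53-floxed, 3.54, 5.07 and 6.21 TPM in CBPWTp53ΔIEC and 4.94, 5.89 and 5.32 TPM in CBPAAp53ΔIEC mice. Its groups overlapped in TPM, and in scaled CPM the CBPWT groups separated narrowly, at 24.9 or more with p53 and at most 24.3 without it. Zmat3 had log2 fold changes of -0.27 ± 0.13 in CBPWT mice (adjusted p = 0.237) and 0.02 ± 0.13 in CBPAA mice (adjusted p = 0.963). Fbxw7, a ubiquitin ligase subunit that degrades MYC and cyclin E, stayed between 4.47 and 6.87 TPM in all 12 libraries. Trp53i11, a p53-inducible protein, was at 86.8, 96.0 and 103 TPM in CBPWTp53-floxed, 99.0, 79.4 and 74.3 TPM in CBPAAp53-floxed, 63.6, 110 and 122 TPM in CBPWTp53ΔIEC and 102, 128 and 87.8 TPM in CBPAAp53ΔIEC mice. The groups overlapped, with the lowest value in CBPWTp53ΔIEC replicate 1. Apart from that library and CBPAAp53ΔIEC replicate 3, the p53ΔIEC libraries were between 102 and 128 TPM. The p53-floxed libraries were between 74.3 and 103 TPM. Over all settings the averaged log2 fold change of Trp53i11 lay between 0.06 and 0.31, below the fold cutoff, with adjusted p between 0.004 and 0.814. Trp53i11 and Trp53i13 had averaged log2 fold changes of 0.13 and 0.17, and the receptor tyrosine kinase Epha2 and Cd82 of 0.15 and -0.05.

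Psrc1 was at 2.37, 2.04 and 1.78 TPM in CBPWTp53-floxed and 2.21, 1.70 and 1.67 TPM in CBPAAp53-floxed mice. It was at 1.77, 5.76 and 3.66 TPM in CBPWTp53ΔIEC and 4.64, 3.43 and 1.88 TPM in CBPAAp53ΔIEC mice. The 4 p53ΔIEC libraries other than CBPWTp53ΔIEC replicate 1 and CBPAAp53ΔIEC replicate 3 lay above every p53-floxed library, and those 2 lay among them. The averaged log2 fold change of Psrc1 was 0.78 ± 0.25 (adjusted p = 0.093). Without the 2 libraries it was 1.05 and passed the cutoff (adjusted p = 0.002, at most 0.256 over all settings). Those libraries were picked after the values were seen and had the lowest Psrc1 of the p53ΔIEC mice. The pass therefore follows largely from that choice. On all libraries Psrc1 also passed with DESeq2 (adjusted p = 0.047). A list of 16 proliferation genes was highest in the same 4 libraries. Its summed level was between 201 and 292 TPM in the p53-floxed mice, 350 and 243 TPM in the 2 libraries and between 614 and 803 TPM in the other 4 p53ΔIEC libraries. Unlike its Psrc1 level, the sum in CBPWTp53ΔIEC replicate 1 lay above every p53-floxed library. All 16 genes were detected, and Mki67, which marks cycling cells, was between 75.7 and 107 TPM in those 4 libraries, 30.6 and 25.7 TPM in the 2 and between 12.9 and 31.2 TPM in the p53-floxed mice. The part of proliferating cells in the Psrc1 values was not tested.

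Plk3 and Rps27l each varied with single libraries. Plk3 was between 9.93 and 42.3 TPM over the 12 libraries, with its lowest value in CBPAAp53-floxed replicate 3 and its highest in CBPWTp53ΔIEC replicate 3. The averaged log2 fold change of Plk3 was -0.12 ± 0.31 (adjusted p = 0.858). A list of 13 immediate early genes, which respond to cell dissociation, was summed to between 993 and 1577 TPM, with its lowest value also in CBPAAp53-floxed replicate 3 but its highest in CBPAAp53-floxed replicate 1, and its part in the Plk3 values was not tested. Rps27l was at 106 TPM in CBPAAp53-floxed replicate 2 and between 46.1 and 66.2 TPM in the other 11 libraries. The near-identical Rps27 was highest in the same library, at 1987 TPM, and at most 1733 TPM in the others. Reads could be shared between these paralogs, which was not tested, so the Rps27l value is uncertain.

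**Figure D4:**
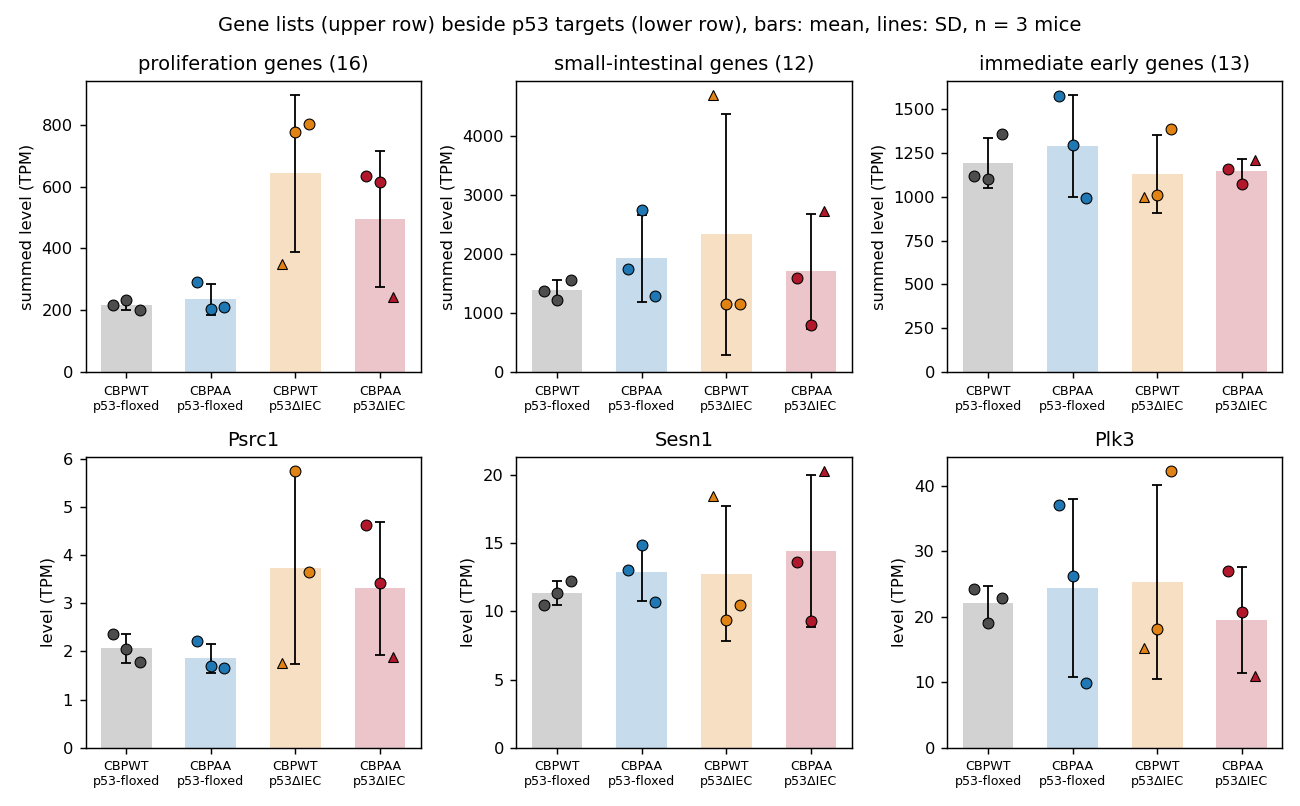
Summed level of 3 gene lists (upper row, TPM) and level of 3 p53 targets (lower row, TPM) in each library. Points are mice, triangles mark CBPWTp53ΔIEC replicate 1 and CBPAAp53ΔIEC replicate 3, and bars and lines give the mean and SD of 3 mice. Those 2 libraries are the highest of the p53ΔIEC mice for small-intestinal genes and for Sesn1, and the lowest for proliferation genes and for Psrc1.

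Left out together, CBPWTp53ΔIEC replicate 1 and CBPAAp53ΔIEC replicate 3 also changed the counts. Without them 5 members passed in CBPWT mice, against 9.23% of all genes. These were Rrm2b, Fas and Plk2, which were lower, and Pidd1 and Psrc1, which were higher. In CBPAA mice 5 members passed, against 8.12% of all genes, with Fas, Dcxr, Gdf15 and Plk2 lower and Psrc1 higher. In the averaged comparison the count was 5 of 33 (15.2%), against 11.4% of all genes, with Fas, Gdf15 and Plk2 lower and Pidd1 and Psrc1 higher. With CBPWTp53ΔIEC replicate 1 alone left out, 4 members passed in the averaged comparison (Fas, Gdf15, Plk2 and Psrc1, against 7.18% of all genes), and with CBPAAp53ΔIEC replicate 3 alone left out 4 passed (Pidd1, Gdf15, Plk2 and Psrc1, against 6.52%). Without the 4 libraries richest in Lyz1, 7 members passed in the averaged comparison, with Xpc, Rrm2b, Fas, Gdf15 and Plk2 lower and Pidd1 and Psrc1 higher, against 11.1% of all genes. These settings were chosen after the values were seen, apart from leaving out single libraries. The library names end in a number whose meaning the labels do not give. Once CBPWTp53ΔIEC replicate 1 and CBPAAp53ΔIEC replicate 3 are left out, this number is higher in every p53ΔIEC library than in any p53-floxed library. In such settings p53 deletion and whatever the number stands for cannot be told apart.

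The second question was whether the serine-to-alanine change in CBP altered these targets. With p53 present, none of the 33 members differed between CBPAAp53-floxed and CBPWTp53-floxed mice at the cutoff, as for all genes (0%). The smallest adjusted p of a member was 0.618, and 1 member, Pidd1, had an unadjusted p under 0.05, against 8.04% of all genes. Fitted with DESeq2, 34 of all genes and none of the members passed. A total of 20 members were higher and 13 lower in CBPAAp53-floxed mice, with log2 fold changes between -0.38 and 0.60 and a median of 0.07, against 0.01 for all genes, of which 48% were lower. For 28 of 33 members the 95% interval lay within 1 unit on either side of 0. With 3 mice per group, changes of any size inside these intervals remain possible.

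Pidd1 and Rrm2b marked the ends of this range. Pidd1 was at most 3.58 TPM in CBPWTp53-floxed mice and at least 3.29 TPM in CBPAAp53-floxed mice, so the groups touched in TPM and separated only in scaled CPM. The log2 fold change of Pidd1 was 0.60 ± 0.26 (unadjusted p = 0.038, adjusted p = 0.618). Rrm2b was at least 3.30 TPM in CBPWTp53-floxed and at most 3.04 TPM in CBPAAp53-floxed mice, with a log2 fold change of -0.38 ± 0.18 (adjusted p = 0.618). Without CBPAAp53-floxed replicate 2 the log2 fold change of Rrm2b was -0.19. The log2 fold change of Gdf15 was 0.50 ± 0.29 (adjusted p = 0.649), and it lay between 0.28 without CBPWTp53-floxed replicate 3 and 0.86 without CBPWTp53-floxed replicate 1. That of Plk2 was -0.20 ± 0.14 (adjusted p = 0.693), and in both genes the groups overlapped in TPM. Rps27l had a log2 fold change of 0.53 ± 0.25 (adjusted p = 0.618), with the library at 106 TPM in the CBPAAp53-floxed group. All 3 separated members of this comparison in scaled CPM, 2 higher (Pidd1 and Sesn1) and 1 lower (Rrm2b), stand against 9.75% and 9.62% of all genes. In TPM the balance was reversed, with 0 members higher and 3 lower (Ercc5, Rrm2b and Ddit4), against 2.55% and 14.4% of all genes. Ddit4 was between 71.8 and 83.3 TPM in CBPAAp53-floxed mice and between 91.3 and 94.4 TPM in CBPWTp53-floxed mice.

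Without p53, no member differed between CBPAAp53ΔIEC and CBPWTp53ΔIEC mice at the cutoff, against 0.00684% of all genes, and no member had an unadjusted p under 0.05, against 3.57% of all genes. All 33 log2 fold changes were smaller than 0.5 in size, and they lay between -0.37 for Plk3 and 0.40 ± 0.19 for Rrm2b (adjusted p = 0.985). Rrm2b was the 1 member whose groups did not overlap, with at least 2.44 TPM in CBPAAp53ΔIEC and at most 2.35 TPM in CBPWTp53ΔIEC mice. In TPM 3.17% of all genes were higher and 1.66% lower in this way, and in scaled CPM 4.76% and 4.5%. DESeq2 called none of the members in this comparison either, and 2 of all genes. The effect of p53 deletion did not differ between CBPWT and CBPAA mice for any member at the cutoff, against 0.00684% of all genes. At an unadjusted p under 0.05, Rrm2b and Pidd1 differed, 2 of 33, against 10.3% of all genes, and DESeq2 called 0 members and 30 of all genes. The p53 comparisons and the CBP comparisons share libraries, so the values of Rrm2b and Pidd1 in them are not independent.

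**Figure D5:**
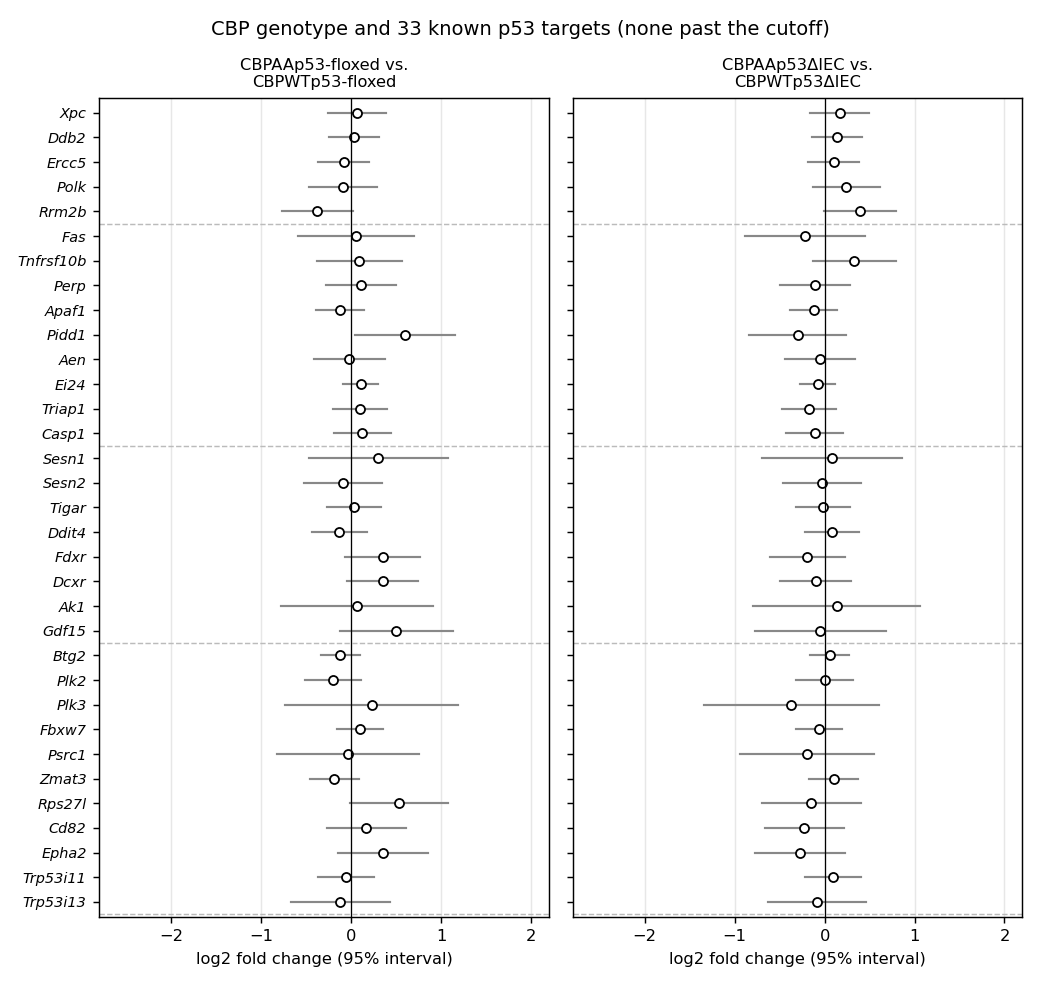
Log2 fold change between CBPAA and CBPWT mice (x axis) of each of the 33 targets with p53 (left) and without p53 (right). Lines are 95% intervals, dashed lines separate DNA repair, cell death, metabolism and growth genes from top to bottom, and open points did not pass the cutoff. With p53 the points range from -0.38 for Rrm2b to 0.60 for Pidd1, and without p53 from -0.37 for Plk3 to 0.40 for Rrm2b.

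The members were set beside a list of 26 other genes of the p53 pathway, of which 22 were tested. Both lists were chosen with earlier results of these data known, so a difference between their counts depends on that choice. In the averaged p53 comparison 5 of the 22 passed as lower (Ccng1, Eda2r, Phlda3, Ephx1 and Trp53inp1) and 2 as higher (Gtse1 and Ckap2), against 3.5% of all genes that passed and 0.732% that passed as lower, and the median log2 fold change of the list was -0.07. Eda2r, a TNF receptor family member, was between 0.596 and 0.951 TPM in the p53-floxed mice and at most 0.0653 TPM in the p53ΔIEC mice. Ephx1, an epoxide hydrolase, was between 18.9 and 23.2 TPM in the p53-floxed and between 3.66 and 7.99 TPM in the p53ΔIEC mice. The groups did not overlap for either gene, and Ephx1 fell by 1.86 on the log2 scale (adjusted p = 0.000125). The cell cycle inhibitor Cdkn1a had an averaged log2 fold change of -0.12 ± 0.14 (adjusted p = 0.669) and the p53 ubiquitin ligase Mdm2 of -0.01 ± 0.08 (adjusted p = 0.965). Gtse1 and Ckap2, which act in mitosis, rose by 1.74 and 1.22 on the log2 scale (adjusted p = 0.012 and 0.021), and like Psrc1 they were low in CBPWTp53ΔIEC replicate 1 (4.77 and 7.16 TPM) and CBPAAp53ΔIEC replicate 3 (3.08 and 4.60 TPM) next to the other p53ΔIEC libraries. In the comparison of CBPAAp53-floxed with CBPWTp53-floxed mice none of the 22 genes passed.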

How the data were processed

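RNA-seq libraries of colonic crypts from 12 mice were analysed. The authors deposited 1 table with raw read counts and TPM per gene and library, used here, and fold changes with p-values of 5 comparisons, which were not used. Per the labels, the submitters' processing notes name fastp 0.20.0, FastQC 0.11.9, HISAT2 2.1.0, SAMtools 1.9, featureCounts of Subread 2.0.1 and GRCm38. Whether strand was used in counting is not given in the sources used here, so counts of the 13 members overlapped by another gene are less certain.

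The test was edgeR 4.0.16 under R 4.3.3, a robust quasi-likelihood fit of 4 groups over all 12 libraries after TMM scaling. Genes were kept by filterByExpr (count minimum 10). Standard errors and intervals came from the F statistic. The cutoff was a Benjamini-Hochberg adjusted p of 0.05 together with a log2 change of 0.5 in either direction. P-values set each difference against a spread between mice that was estimated over all 4 groups together. The spread of the members differed by group, which this estimate does not take up. On simulated counts for p53 deletion in CBPWT mice (14610 genes), 68.3% of the genes changed 2-fold and 97.9% of those changed 4-fold were recovered. Overlap of groups was counted in TMM-scaled CPM, and levels are given in TPM.

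The members and lists were chosen with earlier results of these data known. Values in every library are given for members that passed in a comparison, the 14 with the smallest averaged p, and those with an unadjusted p under 0.05 for CBP genotype with p53 or for the difference. Alternatives were DESeq2 1.42.0, its size factors, other filters, a replicate block, fits of 2 groups, each library left out, and no fold cutoff. Gene positions are from GENCODE on GRCm38, promoters from RefSeq.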

Additional observations from a re-analysis of the deposited data

How the results depend on the processing

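Gdf15 and Plk2 kept their averaged call in every setting. No member passed in the comparisons of CBPAA with CBPWT mice or in the test of the difference under any setting. Deviations of same-numbered libraries correlated between -0.526 and 0.548 over 18 pairs (median -0.03). Those of differently numbered libraries correlated between -0.657 and 0.643 over 36 pairs (median -0.003), so no pairing by replicate number was seen. Both ranges include the libraries rich in Lyz1 RNA, so this check cannot show that the mice were unpaired. With the replicate number as a block, the members called in CBPWT mice went from 2 to 0, and all genes called from 460 to 32 in CBPWT, from 4 to 2 in CBPAA and from 511 to 304 in the averaged comparison, and from 1 to 0 both for CBP genotype without p53 and for the difference. With DESeq2, 1 member passed in CBPAA mice, and all genes called were 867, 75 and 770 in the 3 p53 comparisons, 34 and 2 for CBP genotype with and without p53 and 30 for the difference. With no filter on low counts, 1 member and 11 genes passed in CBPAA mice, 3 genes for CBP genotype with p53 and 2 for the difference. Fitted on the 2 groups alone, 723 genes passed in CBPWT mice, 1 in CBPAA mice and 0 for CBP genotype without p53.

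Leaving out 1 library gave 0 to 3 members in CBPWT mice, 0 to 1 in CBPAA mice and 2 to 4 averaged. All genes called ranged from 1 to 906, from 1 to 326 and from 105 to 1073 in these comparisons, from 0 to 2 for CBP genotype with p53, and from 0 to 1 both without p53 and for the difference. Small log2 fold changes changed sign: that of Dcxr in CBPWT mice ranged from -0.27 to 0.047 and that of Trp53i11 from -0.025 to 0.19, and in CBPAA mice Rrm2b ranged from -0.25 to 0.060, Pidd1 from -0.11 to 0.35, Ddb2 from -0.17 to 0.0058 and Zmat3 from -0.081 to 0.086. Without the 4 libraries richest in Lyz1, chosen after seeing the data, 5, 4 and 7 members passed in CBPWT, CBPAA and averaged, and 1729, 1053 and 1692 of all genes (11.4%, 6.92% and 11.1%). In that setting 42 genes passed for CBP genotype with p53, 8 without p53 and 35 for the difference, the log2 fold change in CBPAA mice was -0.32 for Rrm2b and 0.48 for Pidd1, and the difference of Plk2 was -0.050, against 0.09 to 0.36 with 1 library left out. Without 2 of them, CBPWTp53ΔIEC replicate 1 and CBPAAp53ΔIEC replicate 3, 1370, 1205 and 1697 genes passed. The causes were not tested. Small changes in members of low level, such as Ak1, could not be resolved at this depth.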
